A study of Mus musculus with 31 samples.

Results

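The comparison described here set reprogramming cells that carried Tet1CD against reprogramming cells that carried Flag, on day 8 and without vitamin C. It held 8 of the 31 RNA-seq libraries of the study. They were chosen by their labels alone: the 4 libraries labelled Tet1CD with DMSO or DKG on day 8, and the 4 labelled Flag with the same media on the same day. Each medium was represented by the title numbers 0824 and 0826, so that a Tet1CD library and the Flag library with the same medium and number formed 1 of 4 pairs. All 8 libraries came from mouse cells of strain 129/OG2 at passage 0 in which reprogramming had been induced by OKSM, that is, by introduced Pou5f1 (Oct4), Klf4, Sox2 and Myc. The libraries in Vc, those of day 3, and the ESC and MEF libraries were used only where they are named. The labels explain neither what the Tet1CD and Flag constructs contain nor the abbreviation DKG, and no source used here says that libraries came from separate cultures.

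TET1 is one of a family of dioxygenases that oxidise the methyl group of 5-methylcytosine, a step on the way to unmethylated DNA, and the family's activity is raised by vitamin C. During reprogramming, fibroblasts first lose fibroblast expression, pass through a state with epithelial genes, divide rapidly, and only in a minority of cells switch on the endogenous pluripotency network. In several cell types, loss of DNA methylation is known to release germline genes and to be accompanied by expression of interferon-stimulated genes, which encode antiviral proteins.

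Total expected counts ran from 3953297 to 6818060 in the 8 libraries, so that a gene without a read in a library could stand at up to 0.759 CPM there (3 counts). CPM denotes the TMM-normalised read count, scaled to a common library size. Of 29267 gene identifiers, 14015 had enough counts to be tested. The difference was estimated with edgeR's quasi-likelihood test in a model of 24 libraries of days 3 and 8 in which each Tet1CD library was paired with its Flag library. All adjusted p-values are Benjamini-Hochberg values over the 14015 genes, and genes with an adjusted p under 0.05 are said to have risen or fallen in Tet1CD relative to Flag. Since the libraries may be technical repeats, the p-values cover no more than their spread. The 4 pairs came from 2 title numbers, and the DMSO and DKG libraries of one number resembled each other more than libraries of different numbers did. Beside the gene counts below, the count is therefore also given after the DMSO and DKG counts of each virus and number were summed, which leaves 2 pairs a condition.

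Tet1CD cells differed from Flag cells at 1292 genes, which is 9.22% of those tested. Of these, 799 genes (5.7%) rose and 493 (3.52%) fell, and the median log2 fold change over all genes was 0.00. The changes upward were the larger: 220 of the genes that rose and 38 of those that fell changed by at least 1 on the log2 scale, and 78 and 6 of them by at least 2. The direction was the same in all 4 pairs for 776 of the 799 genes that rose and for 484 of the 493 that fell. All 4 Tet1CD libraries lay above all 4 Flag libraries at 630 genes (4.5%) and below them at 364 (2.6%), whatever their test. With the DMSO and DKG counts summed, 247 genes rose and 35 fell. Leaving out 1 of the 8 libraries, which removes its pair, gave 701 (Tet1CD DMSO 0824) to 863 genes (Tet1CD DMSO 0826) in both directions together. Without the pairing in the model, 203 rose and 12 fell, together 215 genes or 1.53% of those tested. On the deposited TPM values, tested as log2(TPM + 1), 581 rose and 201 fell, so that 74.3% of the calls were upward against 61.8% in the count model.

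**Figure D1:**
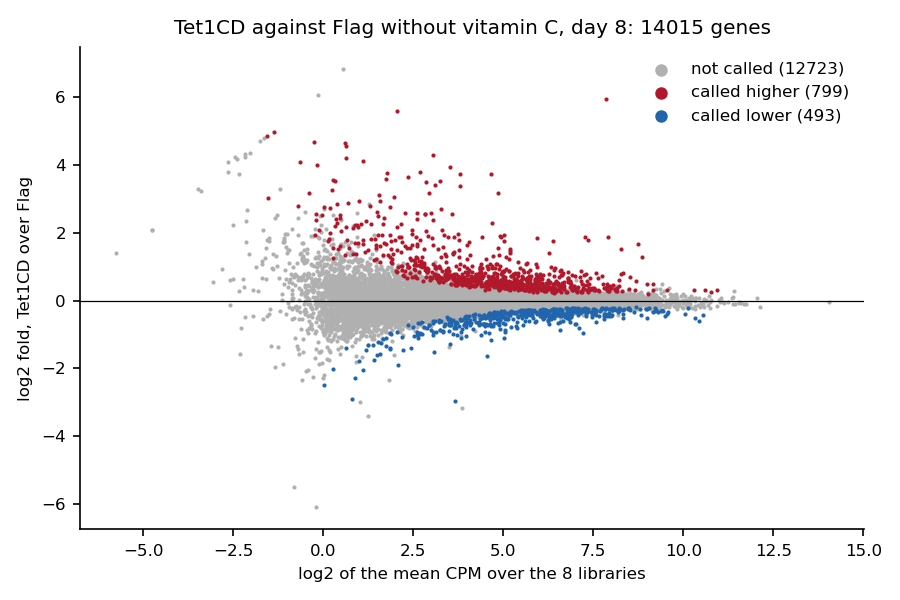
Log2 fold change of Tet1CD over Flag on day 8 without vitamin C (vertical axis) against the log2 of the mean level in the 8 libraries in CPM (horizontal axis), 1 point a gene. Genes that rose (799) and fell (493) are coloured and the others are grey; 2 genes at 0 in all 8 libraries are not drawn. Among the coloured genes the largest fold changes are upward, and apart from Tet1 they belong to genes with low levels.

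Tet1 itself set the groups apart. In the Flag libraries it stood at 9.14, 4.25, 7.44 and 4.83 CPM, in the order DMSO 0824, DMSO 0826, DKG 0824 and DKG 0826, which is the order used for every gene below. The Tet1CD libraries gave 319, 602, 289.5 and 613 CPM (log2 fold change 5.95 ± 0.36 (SE), adjusted p = 8.26e-08; gene at chr10:62804570-62908996, mm10). No Tet1CD library came near a Flag library, and within Tet1CD the libraries of number 0826 were above those of 0824 in both media. Reads of an introduced Tet1 sequence cannot be told from reads of the endogenous gene in a gene table. Of the other family members, Tet3 fell from 120.0, 122, 98.1 and 120.2 CPM to 88.5, 97.4, 74.6 and 84.9 (log2 fold change -0.41 ± 0.08 (SE), adjusted p = 0.0025), without overlap of the groups. Tet2 was at 106, 60.2, 96.2 and 77.3 CPM in Flag and 109, 81.1, 115 and 93.2 in Tet1CD and missed the threshold (log2 fold change 0.25 ± 0.08 (SE), adjusted p = 0.0565). Among 21 tested genes of TET and base excision demethylation, Tet1 was the only one that rose, beside 5.7% of all genes tested. Tet3 and Ogt, the enzyme that adds N-acetylglucosamine to proteins and binds TET proteins, fell, beside 3.52% of all genes tested. Tet1 still rose with DMSO and DKG summed and without the pairing, while neither Tet3 nor Ogt passed in either case.

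The 4 reprogramming factors, by contrast, were all lower in Tet1CD, and all in all 4 pairs. Klf4, an epithelial transcription factor, stood at 1421, 2459.6, 999.8 and 1959 CPM in Flag and 962, 1307, 821 and 1231 in Tet1CD (log2 fold change -0.60 ± 0.08 (SE), adjusted p = 0.000221). Myc changed by -0.53 ± 0.10 on the log2 scale (adjusted p = 0.00323), Sox2 by -0.47 ± 0.08 (adjusted p = 0.00143) and Pou5f1 by -0.44 ± 0.07 (adjusted p = 0.000743). For each of the 4 genes the groups overlapped, and within each virus and medium the 0826 library was above the 0824 library. Their summed level was 3675 to 8128 CPM in Flag and 3134 to 4743 CPM in Tet1CD, against 190.6 and 225 CPM in the MEF libraries and 1157 and 1247 CPM in the ESC libraries. The tables do not separate introduced from endogenous transcripts of these genes. With DMSO and DKG summed, Pou5f1 and Klf4 still fell and Sox2 and Myc did not pass; without the pairing none of the 4 passed.

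**Figure D2:**
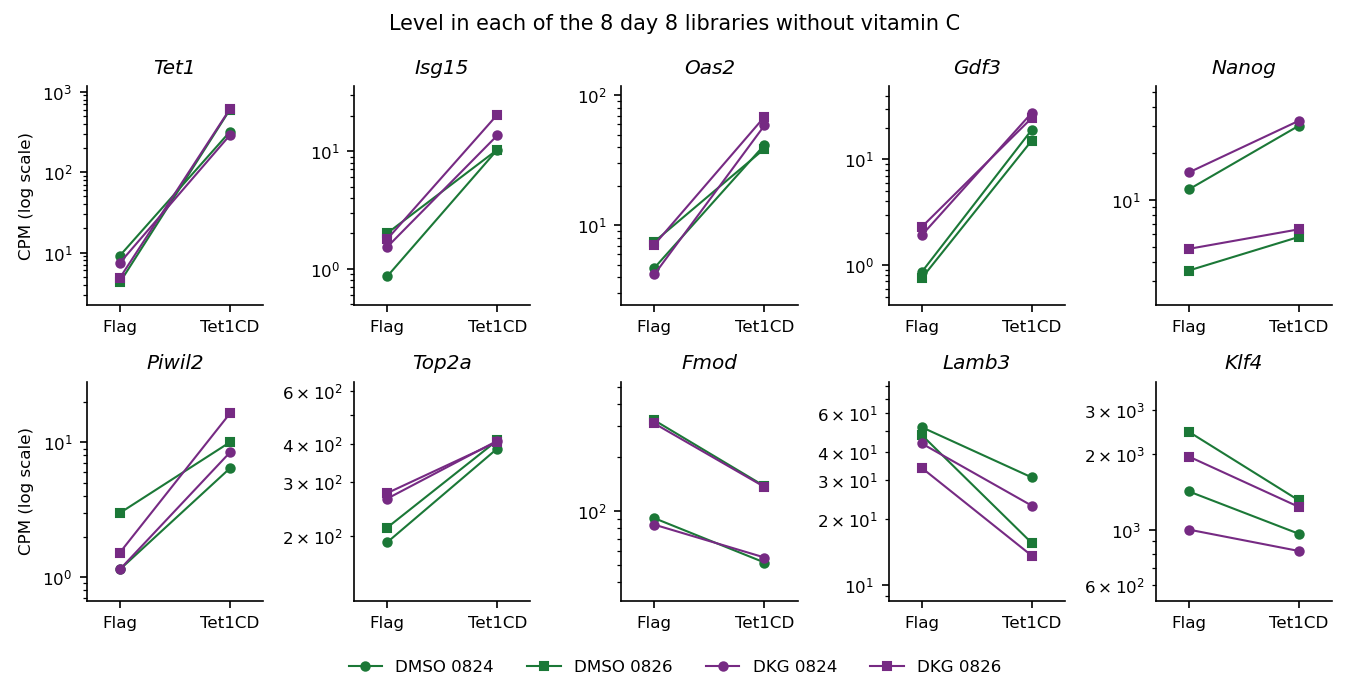
Levels of 10 genes in the 8 libraries, in CPM on a log axis, with Flag on the left and Tet1CD on the right of each panel. Lines join the libraries of one medium and title number (circles 0824, squares 0826; green DMSO, purple DKG). Tet1, Isg15, Oas2, Gdf3, Piwil2 and Top2a do not overlap between the viruses and Lamb3 lies wholly lower in Tet1CD, while Nanog, Fmod and Klf4 move in all 4 pairs but overlap, with the 2 numbers at different levels.

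Part of the pluripotency network rose in Tet1CD, where 5.7% of all genes tested rose and 3.52% fell. Of 44 tested members of a list of 46, 17 rose and none fell, and the median log2 fold change was 1.21 (0.00 over all genes; 1.09 with the 2 members at 0 in every Flag library set to a floor of 3 counts). The largest change of a member that also had no overlap was that of Gdf3, a TGF-beta family ligand of undifferentiated cells (chr6:122605403-122610087). It stood at 0.857, 0.75, 1.91 and 2.29 CPM in Flag and at 19, 15.1, 27.5 and 24.6 in Tet1CD (log2 fold change 3.94 ± 0.30 (SE), adjusted p = 5.11e-07). All 4 Tet1CD libraries were far above the Flag libraries, below the 98.1 and 43.3 CPM of the ESC libraries and above the 0.212 and 0 CPM of the MEF libraries. Tdgf1, the co-receptor of Nodal and Gdf3, went from 1.86, 0, 4.39 and 0 CPM to 21.9, 3.01, 37.8 and 7.17 (log2 fold change 3.52 ± 0.37 (SE), adjusted p = 2.15e-05). Here the 2 numbers differed by so much that the lowest Tet1CD library, DMSO 0826, lay below the highest Flag library.

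Other members that rose also differed by title number. Nanog, a core pluripotency transcription factor, stood at 11.7, 3.5, 15.1 and 4.83 CPM in Flag and 30.3, 5.77, 32.6 and 6.47 in Tet1CD (log2 fold change 1.06 ± 0.21 (SE), adjusted p = 0.00457); each Tet1CD library exceeded its own Flag library, but the 0826 libraries of Tet1CD were below the 0824 libraries of Flag. Lin28a, an RNA-binding protein that blocks let-7 maturation, was found at 0.286, 0, 1.15 and 0.508 CPM and 6.99, 1, 14.8 and 2.62 (log2 fold change 3.75 ± 0.54 (SE), adjusted p = 0.000443). Zscan10 (2.93 ± 0.42), Utf1 (3.11 ± 0.39), Zfp42, also known as Rex1 (2.42 ± 0.55), Esrrb (2.42 ± 0.66) and Sall4 (1.59 ± 0.30) also rose on the log2 scale. L1td1 (0.80 ± 0.09) rose by less from a higher level. Of the other members, Dppa3 and Dppa4 had no read in any Flag library and 5 reads each over the 4 Tet1CD libraries. Dppa5a stood at 0.572, 0, 1.72 and 0 CPM against 3.84, 1.76, 8.29 and 2.97 without passing (adjusted p = 0.0579). Of the 44 members, 8 had no overlap between the groups, all of them higher, beside 4.5% of all genes tested. With DMSO and DKG summed 10 members rose, without the pairing 1 (Gdf3), and without either library of the DKG 0824 pair 11. In these bulk libraries, a larger number of cells expressing such a gene cannot be told apart from more RNA per cell.

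Germline genes that DNA methylation silences in somatic cells were for the most part not measurable. Of 41 genes on that list, 12 had enough counts to be tested, and 4 of these rose while none fell. Over all genes tested, 5.7% rose and 3.52% fell. Piwil2, which encodes a PIWI protein of the germline small RNA pathway, stood at 1.14, 3, 1.15 and 1.53 CPM in Flag and 6.44, 10, 8.44 and 16.4 in Tet1CD (log2 fold change 2.59 ± 0.27 (SE), adjusted p = 1.29e-05; chr14:70372477-70429383). Every Tet1CD library was above every Flag library. Tex19.1, a repressor of retrotransposon mobilisation in germ cells, was at 0.143, 0.25, 0 and 0.508 CPM against 1.64, 1.51, 2.96 and 2.45 (adjusted p = 0.0158), and Zfp42 is on this list as well. Tuba3b had 0 reads in Flag and 19 over the 4 Tet1CD libraries, at least 5.47-fold higher against a floor of 3 counts over the Flag libraries (adjusted p = 0.0439). The list's median was 1.05, but 0.01 with the 3 members at 0 in Flag set to that floor, and the count of 4 was 2 with DMSO and DKG summed and 2 without the pairing, and it was 1 when a library of the DKG 0824 pair or Tet1CD DMSO 0824 was left out and 2 without Flag DMSO 0824. Of 18 two-cell-stage genes in the files, 2 were tested and neither passed.

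The ESC and MEF libraries give a scale for these changes. A gene was taken as ESC-high when both ESC libraries were above both MEF libraries and the mean was at least 4-fold higher, and as MEF-high in the reverse case. Of all genes tested 9.63% were ESC-high and 12.1% MEF-high. Among the 799 genes that rose the share of ESC-high genes was 26.2% (209 genes) and that of MEF-high genes 12.5%. Among the 493 that fell, 8.52% were ESC-high and 23.1% (114) MEF-high. Without members of the cell cycle and interferon lists, the ESC-high share of the genes that rose was 27.0%. Read from the other side, 15.5% of the 1349 ESC-high genes rose and 3.11% fell, so that most of the ESC-high genes did not pass in either direction. One ESC library, 0822, held fibroblast transcripts: its summed level of the fibroblast list was 32625 CPM, against 5272 CPM in ESC 0819. The numbers are those of the titles, and the deposited table of each ESC library carries the number of the other in its name. With ESC 0819 alone, the ESC-high share was 12.5% of all genes and 31.4% of those that rose, and the MEF-high share 17.7% of all and 28.8% of those that fell.

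**Figure D3:**
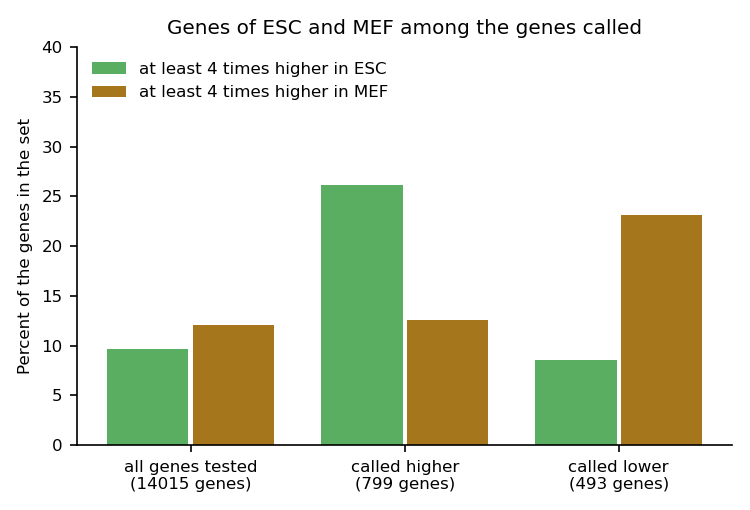
Percentage of genes that were at least 4-fold higher in ESC than in MEF, or the reverse, among all genes tested, among the genes that rose in Tet1CD and among those that fell. ESC-high genes make up 26.2% of the genes that rose against 9.63% of all, and MEF-high genes 23.1% of the genes that fell against 12.1% of all.

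Most interferon-stimulated genes rose, while over all genes tested 5.7% rose and 4.5% lay higher in Tet1CD without overlap of the groups. Of 50 tested members of a list of 52, 40 rose and none fell, with a median log2 fold change of 1.56, and for 39 members all 4 Tet1CD libraries lay above all 4 Flag libraries. The summed level of the 50 genes was 633 to 825 CPM in Flag and 1256 to 1645 CPM in Tet1CD. Over the 51 members in the files, the sum was 2066 and 1235 CPM in the MEF libraries 0824 and 0826. It was 870 and 924 CPM in the ESC libraries 0822 and 0819. The list holds the sensors, the transcription factors and the effectors of the response, and members of each class rose. With DMSO and DKG summed, 29 members rose, and without the pairing 17; leaving out 1 library in turn gave 34 to 39.

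Promoter sequences of 3 of these genes are shown because they carry the element through which interferon acts on its targets. In that pathway a transcription factor complex that includes IRF9 binds the interferon-stimulated response element (ISRE). Its core was searched as GAAANNGAAA or its reverse complement TTTCNNTTTC on both strands, in the 250 bases before and 50 bases after the transcription start that RefSeq gives on GRCm38.p6. Gbp3 encodes a guanylate-binding GTPase, Irgm1 an immunity-related GTPase and Isg15 a ubiquitin-like modifier. The 250 bases before each start are printed in the direction of transcription, with ISRE cores, overlapping ones merged, in capitals.
Gbp3 promoter, chr3:142559794-142560043, plus strand: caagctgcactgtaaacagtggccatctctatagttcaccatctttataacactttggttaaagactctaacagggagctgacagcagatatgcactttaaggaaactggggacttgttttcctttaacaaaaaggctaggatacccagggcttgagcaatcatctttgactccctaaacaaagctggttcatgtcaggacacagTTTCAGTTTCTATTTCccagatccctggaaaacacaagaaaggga
Irgm1 promoter, chr11:48871421-48871670, minus strand: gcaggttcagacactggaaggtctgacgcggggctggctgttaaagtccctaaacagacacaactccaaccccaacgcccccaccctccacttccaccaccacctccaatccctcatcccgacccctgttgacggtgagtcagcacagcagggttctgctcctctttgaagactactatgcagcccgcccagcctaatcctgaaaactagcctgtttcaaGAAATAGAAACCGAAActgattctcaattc
Isg15 promoter, chr4:156200819-156201068, minus strand: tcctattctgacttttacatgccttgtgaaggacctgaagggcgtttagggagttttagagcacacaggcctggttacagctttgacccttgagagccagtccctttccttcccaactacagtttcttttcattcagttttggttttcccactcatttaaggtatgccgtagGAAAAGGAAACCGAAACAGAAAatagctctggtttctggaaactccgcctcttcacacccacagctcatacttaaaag
Gbp3 and Irgm1 each held 2 overlapping cores and Isg15 held 3. Over all genes with such a window (10574 of the 14015 tested), 2.92% held a core. Of the 31 interferon genes that rose and had a window, 20 held one (64.5%), against 9.95% of all genes that rose and 2.16% of those that fell. A match describes the letters only: Oasl2, which rose by 3.73, has none in its window.

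Isg15 stood at 0.857, 2, 1.53 and 1.78 CPM in Flag and 10.3, 10.3, 13.6 and 20.4 in Tet1CD (log2 fold change 3.17 ± 0.24 (SE), adjusted p = 5.11e-07; chr4:156199424-156200818). Gbp3 went from 3, 2.5, 4.39 and 3.81 CPM to 19.6, 14.6, 20.1 and 27.1 (log2 fold change 2.56 ± 0.17 (SE), adjusted p = 1.51e-07), and Irgm1 from 9.29, 7, 9.54 and 9.66 CPM to 47.4, 33.1, 43.5 and 46 (log2 fold change 2.27 ± 0.17 (SE), adjusted p = 3.74e-07). In each of the 3 genes the lowest Tet1CD library exceeded the highest Flag library several fold. Oas2, which makes the second messenger that activates RNase L, stood at 4.71, 7.5, 4.2 and 7.12 CPM against 41.6, 38.9, 58.8 and 68.5 (log2 fold change 3.17 ± 0.20 (SE), adjusted p = 1.51e-07; chr5:120730333-120749853). Usp18, which removes ISG15 from proteins and dampens receptor signalling, went from 0.429, 1.25, 0.763 and 0.763 CPM to 9.18, 4.77, 12.7 and 11.4 (log2 fold change 3.63 ± 0.34 (SE), adjusted p = 5.13e-06). Also here no value was shared, and the 2 DKG libraries of Tet1CD were the highest. Ifit1, Ifi44, Rtp4 and Oasl2, further effectors, rose by 3.41 ± 0.30, 3.58 ± 0.43, 3.48 ± 0.38 and 3.73 ± 0.26 on the log2 scale.

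The sensors and transcription factors moved as well. Ddx58, which encodes the RNA sensor RIG-I, stood at 20.6, 20, 25 and 15.8 CPM in Flag and 63.1, 38.9, 63.4 and 47.4 in Tet1CD (log2 fold change 1.40 ± 0.14 (SE), adjusted p = 8.61e-06). Ifih1, the sensor MDA5, rose by 1.38 ± 0.20 and the endosomal sensor Tlr3 by 0.88 ± 0.25. Among the transcription factors, Irf7 rose by 2.38 ± 0.31, Stat2 by 1.03 ± 0.17 and Irf9 by 0.93 ± 0.10. Antigen presentation genes rose by less: B2m, the invariant light chain of MHC class I, went from 118, 177, 128 and 199 CPM to 205, 262, 204 and 306 (log2 fold change 0.67 ± 0.11 (SE), adjusted p = 0.000582), and H2-K1 and H2-D1 rose by 0.52 ± 0.11 and 0.60 ± 0.13. Trim25 (0.10 ± 0.11) and Cxcl10 (2.11 ± 0.77) were among the 10 members that did not pass. Apol9b and Apol9a, apolipoprotein L genes outside the list, rose by 5.58 ± 0.45 and 3.78 ± 0.28; 52.3% of the 50-base windows of Apol9b are shared with other genes, so that reads may be divided between copies.

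Macrophages express many interferon-stimulated genes, and 2 of 8 tested macrophage and blood markers rose in the same libraries, beside 5.7% of all genes tested. The summed level of 18 macrophage and blood markers was 27.9 to 39.2 CPM in Flag and 60.3 to 84.6 CPM in Tet1CD, against 662 and 3117 CPM in the MEF libraries. Laptm5 alone gave 13.7 to 24.5 CPM of the Flag sum and 48.2 to 57.7 CPM of the Tet1CD sum. The median log2 fold change of the 8 tested markers was 0.95. The markers that rose were Laptm5, a lysosomal membrane protein of blood cells (17.6, 24.5, 13.7 and 21.4 CPM against 51.5, 48.2, 56.6 and 57.7; log2 fold change 1.51 ± 0.22 (SE), adjusted p = 0.000354), and Lyz2, lysozyme (0.714, 0.75, 1.91 and 2.03 CPM against 4.38, 2.26, 9.33 and 3.32; adjusted p = 0.0341), and of these Laptm5 also passed with DMSO and DKG summed. The complement genes C1qb and C1qc were at most 0.889 CPM in any of the 8 libraries, Csf1r was at most 2.22 CPM and Cd68 was 7, 8.25, 4.39 and 3.56 CPM against 4.25, 3.77, 8.29 and 3.67. Of the markers with too few counts to be tested, C1qa had 1 read in Flag and 9 in Tet1CD. Fcer1g had 2 and 8 and Cd14 8 and 15, while Hbb-bs (11 and 8) and Gata1 (9 and 8) went the other way. The part of macrophages in the interferon result was not tested.

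**Figure D4:**
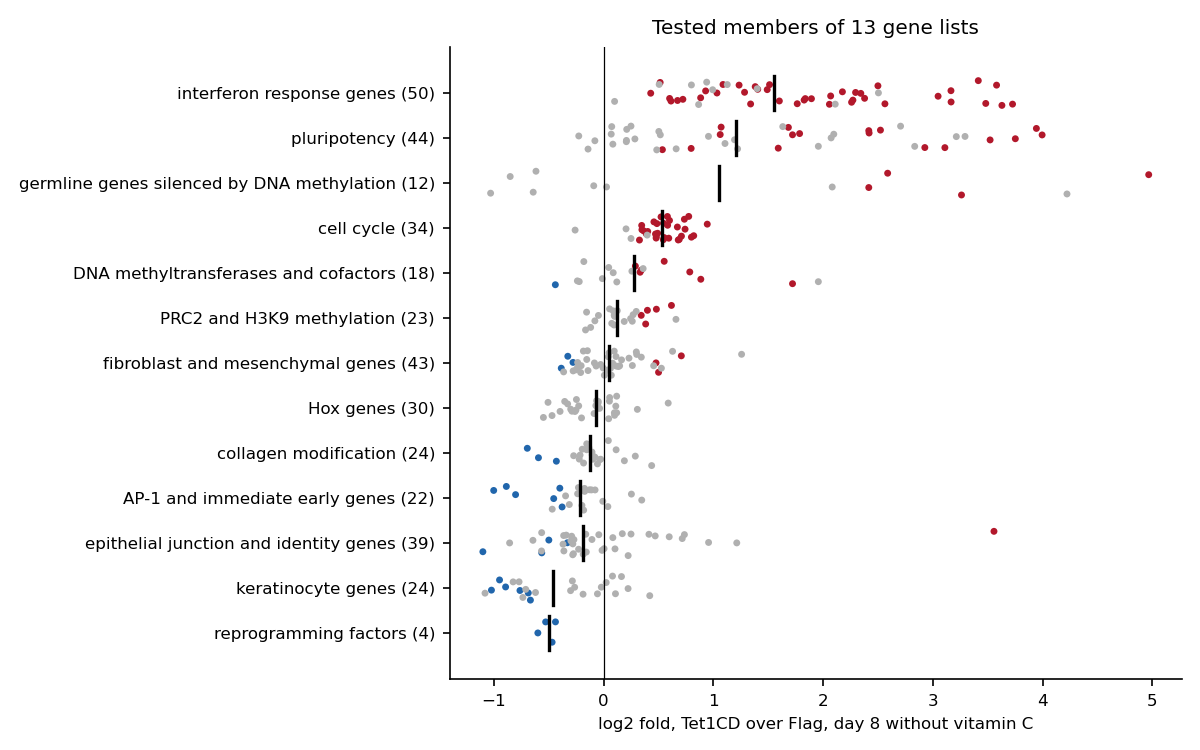
Log2 fold change of Tet1CD over Flag for every tested member of 13 gene lists, 1 point a gene, coloured by whether it rose, fell or did not pass, with the list's median as a black bar. The interferon (median 1.56), pluripotency (1.21) and cell cycle (0.53) lists lie mostly above 0 and the keratinocyte list (-0.46) mostly below it.

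Cell cycle genes rose relative to Flag by small but regular amounts. Over all genes tested, 5.7% rose and 4.5% lay higher in Tet1CD without overlap. Of 34 members, 30 rose and none fell, the median log2 fold change was 0.53, and 23 members had no overlap between the groups. Their summed level was 2329 to 2805 CPM in Flag and 3633 to 4003 CPM in Tet1CD. On day 3 in the same media it was 4345 to 4708 CPM in Flag and 4062 to 4254 CPM in Tet1CD. The sum was thus lower on day 8 than on day 3 with both viruses, and the drop was larger in Flag. Top2a, the topoisomerase that untangles replicated chromosomes (chr11:98992943-99024189), stood at 190.3, 213, 265 and 276 CPM in Flag and 387, 412, 411 and 407 in Tet1CD (log2 fold change 0.80 ± 0.08 (SE), adjusted p = 6.13e-06). Mki67, the proliferation antigen Ki-67, went from 228, 298, 271 and 345 CPM to 400.4, 463, 454 and 497 (log2 fold change 0.69 ± 0.07 (SE), adjusted p = 1.01e-05). In both genes the 4 Tet1CD libraries were above all Flag libraries. The mitotic cyclin Ccnb1 rose by 0.82 ± 0.09, cyclin A2 (Ccna2) by 0.67 ± 0.07, the spindle checkpoint kinase Bub1b by 0.71 ± 0.07 and the spindle motor Kif11 by 0.74 ± 0.09. Replication genes rose too, with Rrm2, Pcna and Mcm7 at 0.58 ± 0.08, 0.40 ± 0.07 and 0.49 ± 0.07. E2f1 (0.20 ± 0.14), Foxm1 (0.25 ± 0.08), Cdt1 (0.40 ± 0.13) and Gins2 (-0.26 ± 0.15) did not pass. With DMSO and DKG summed 16 members rose, and without the pairing 19.

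The promoters of Top2a and Mki67 are printed because genes of the late cell cycle share 2 short elements, the CCAAT box, bound by NF-Y, and the cell cycle homology region (CHR), bound by complexes that repress these genes in resting cells. They were searched on both strands as CCAAT or ATTGG and as TTTGAA or TTCAAA, and both are in capitals below, again over the 250 bases before the start on GRCm38.p6.
Top2a promoter, chr11:99024190-99024439, minus strand: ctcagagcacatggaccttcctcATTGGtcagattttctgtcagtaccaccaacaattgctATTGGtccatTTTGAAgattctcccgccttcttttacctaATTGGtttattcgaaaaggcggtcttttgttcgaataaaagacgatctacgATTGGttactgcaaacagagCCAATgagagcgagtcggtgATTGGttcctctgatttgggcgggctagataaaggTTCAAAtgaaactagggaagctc
Mki67 promoter, chr7:135716380-135716629, minus strand: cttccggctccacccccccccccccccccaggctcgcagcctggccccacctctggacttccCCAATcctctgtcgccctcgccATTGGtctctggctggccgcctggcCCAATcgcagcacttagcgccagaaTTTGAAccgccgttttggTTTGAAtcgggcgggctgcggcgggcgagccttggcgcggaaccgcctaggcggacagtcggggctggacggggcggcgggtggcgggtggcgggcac
Top2a held 8 and Mki67 held 5 matches to either element. Of the 25 cell cycle genes that rose and had a window, 84.0% held a CCAAT box and 52.0% a CHR, against 39.1% and 11.9% of all genes with a window. Over the genes that rose as a whole the shares were 52.3% and 25.3%, and over the genes that fell 28.3% and 7.01%. Matches of 5 or 6 letters are frequent by length alone and are no evidence of binding.

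For most cell cycle genes the effect passed as larger on day 8 than on day 3 in the model of single libraries. With the DMSO and DKG counts summed, none of them passed the test of this difference. Against day 3, where the same viruses and media were measured, the effect of Tet1CD differed at 304 genes (2.17% of those tested), being higher on day 8 at 215 (1.53%) and lower at 89 (0.635%). With DMSO and DKG summed, 0 genes passed this test in edgeR (909 at an unadjusted p under 0.05), while all 304 kept their direction. Without the pairing 22 passed, and DESeq2 called 263 on the single libraries. Of the 34 cell cycle genes, 25 had a higher effect on day 8 and none a lower one, and the list's median was -0.10 on day 3. Top2a was at 399.7, 436, 412 and 423 CPM in Flag on day 3 and at 378, 375, 365 and 395 in Tet1CD. Its effect differed between the days by 0.94 ± 0.11 (SE), adjusted p = 0.000422. The other 4 genes with the lowest p among the 215 were Mki67 (0.84), Bub1b (0.89), Brca1, which repairs double-strand breaks (1.03), and the chromatin protein Hmgb2 (0.85). Tet1 itself did not pass this test, with effects of 5.97 on day 3 and 5.95 on day 8 on the log2 scale (difference -0.01 ± 0.62 (SE), adjusted p = 0.998).

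In the interferon and pluripotency groups fewer members passed this test than in the cell cycle group. Over all genes tested, 1.53% had a higher effect on day 8 and 0.635% a lower one. The interferon list had a median of 0.76 on day 3 and 1.56 on day 8, and 2 of its 50 members, Gbp3 and Irgm1, passed the test of the difference. For Gbp3 the effect was 1.41 on day 3 (difference 1.15 ± 0.29 (SE), adjusted p = 0.0491). The pluripotency medians were 0.31 and 1.21, with 3 of 44 members past that test. Of the 89 genes with a lower effect on day 8, 40 fell in the day 8 comparison and 48 passed in neither direction. Fmod, a collagen-binding proteoglycan, stood on day 8 at 91.3, 323, 84 and 310.2 CPM in Flag and 51.5, 138, 54.9 and 137 in Tet1CD, and its effect differed by -1.32 ± 0.17 (SE), adjusted p = 0.00104. Npas2, a clock transcription factor, gave a difference of -1.39. Of the fibroblast list 7 members had a lower effect on day 8 and none a higher one.

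**Figure D5:**
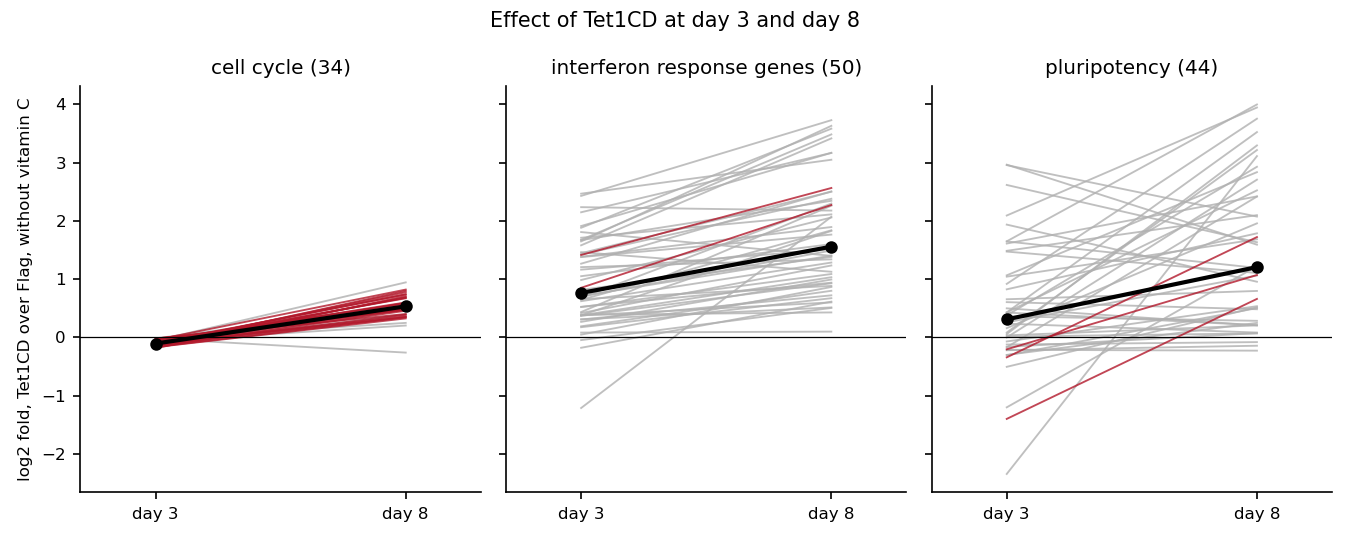
Log2 fold change of Tet1CD over Flag without vitamin C on day 3 and day 8 for the tested members of the cell cycle (34), interferon (50) and pluripotency (44) lists, 1 line a gene, with medians in black and genes whose effect differed between the days in the model of single libraries in red (with DMSO and DKG summed no gene passed). The cell cycle median moves from -0.10 to 0.53 and 25 of its members are red, while 2 interferon and 3 pluripotency genes are.

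Several genes that set or maintain DNA methylation rose. The share of all genes tested that rose was 5.7%, and the share that fell was 3.52%. Of 18 tested DNA methyltransferases and cofactors, 7 rose and 1 fell, and the median was 0.27. Dnmt3b, the de novo methyltransferase of pluripotent cells, went from 9.14, 6.25, 7.63 and 6.86 CPM to 27.5, 11.3, 50.9 and 13.3 (log2 fold change 1.72 ± 0.22 (SE), adjusted p = 8.95e-05). Dnmt3a, the other de novo methyltransferase, was the gene that fell, from 89.2, 135, 78.6 and 119 CPM to 77.5, 84.1, 69.5 and 70.6 (log2 fold change -0.44 ± 0.13 (SE), adjusted p = 0.0428). Maintenance factors rose by less than Dnmt3b: Uhrf1, which recruits DNMT1 to replicated DNA, by 0.55 ± 0.08, Dnmt1 by 0.29 ± 0.07 and the remodeller Hells by 0.78 ± 0.13. Zbtb38, a methyl-CpG binding repressor, stood at 51.7, 90, 48.1 and 84.9 CPM against 92.3, 141, 109 and 154 (log2 fold change 0.89 ± 0.10 (SE), adjusted p = 2.11e-05), and its groups did not overlap. The count of 7 was 4 with DMSO and DKG summed and 2 without the pairing, and 4 without any one library of the DMSO 0824 or DKG 0826 pairs. Of 23 genes of PRC2 and H3K9 methylation 5 rose, among them Suv39h2 (0.62 ± 0.11) and Ezh2 (0.34 ± 0.07), and none fell. None of the 5 passed with summed counts, and 2 did without the pairing. Of 25 histone demethylases 3 fell, Kdm6b (-0.47 ± 0.12), Hr (-0.55 ± 0.14) and Kdm4b (-0.37 ± 0.10), and none rose. This last count was 0 with DMSO and DKG summed, without the pairing, and when any one 0826 library was left out, and Dnmt3a did not pass with summed counts or without the pairing either.

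The genes that fell, 3.52% of those tested against 5.7% that rose, were weaker and more scattered. The largest decreases among genes of at least 5 CPM were those of Hrc, a calcium-binding protein of the sarcoplasmic reticulum, by -1.91 ± 0.42, and Gpr50, an orphan receptor related to melatonin receptors. Gpr50 stood at 54.6, 20.7, 47 and 18.8 CPM in Flag and 16, 4.02, 17.8 and 7.51 in Tet1CD (log2 fold change -1.63 ± 0.15 (SE), adjusted p = 3.35e-06; chrX:71663667-71669257), just without overlap. Ucn3, the peptide urocortin 3, went from 36.6, 35.7, 38 and 30.5 CPM to 19, 14.6, 13.9 and 15 (log2 fold change -1.16 ± 0.18 (SE), adjusted p = 0.000571). Bmp2 fell by 1.05 on the log2 scale from 14.7, 33.5, 8.78 and 28 CPM to 6.85, 14.8, 5.48 and 12.6. Both BMP ligands on the TGF-beta and BMP list that passed were lower, since Bmp4 changed by -0.93 ± 0.19, and with Tgfb2 they were the 3 of its 31 members that fell; Eng and Tgfbr3, both co-receptors, rose. Of these 5 genes only Bmp2 passed with summed counts. Of the 15 genes with the largest decrease, 7 still fell with DMSO and DKG summed and none without the pairing. Of the 15 with the largest increase, 15 and 12 did.

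Some epidermal genes fell in Tet1CD, where 3.52% of all genes tested fell and 5.7% rose. Of 24 tested keratinocyte genes 6 fell and none rose, with a median of -0.46. Only Ppl had no overlap between the groups, beside 2.6% of all genes tested that lay lower without overlap. In DMSO and DKG, the 30 members summed to 1002 and 982 CPM in Flag 0824 and to 446 and 392 CPM in Flag 0826. The Tet1CD sums were 800 and 690 CPM for 0824 and 330 and 309 CPM for 0826. Ppl, a desmosomal and cornified envelope plakin, stood at 32.7, 25.5, 27.7 and 22.9 CPM in Flag and 17.5, 19.3, 16.1 and 14.7 in Tet1CD (log2 fold change -0.69 ± 0.12 (SE), adjusted p = 0.00174). Sprr1a, a precursor of the cornified envelope, changed by -1.02 ± 0.20, and the keratins Krt16, Krt13, Krt6b and Krt6a by -0.95 ± 0.19, -0.76 ± 0.16, -0.89 ± 0.22 and -0.67 ± 0.18. Krt6a and Krt6b share 57.2% and 50.1% of their 50-base windows with other genes, so that their separate values are uncertain. Among 39 epithelial junction and identity genes 4 fell and 1 rose. Lamb3, a chain of the basement membrane laminin of skin, went from 52, 48, 43.9 and 34.1 CPM to 30.8, 15.6, 23 and 13.6 (log2 fold change -1.10 ± 0.13 (SE), adjusted p = 4.44e-05; chr1:193207699-193343878) and did not overlap. Dsp, Pkp1 and Krt19 fell by less, and Cldn6, a claudin of pluripotent and early embryonic epithelium, was the gene that rose (0.286, 0, 0.382 and 0 CPM against 3.01, 0.251, 5.04 and 0.699). Klf4, which belongs to the introduced factors, was lower in the same libraries, and its part in the epidermal result was not tested. No keratinocyte gene passed with DMSO and DKG summed or without the pairing; of the epithelial genes that fell, 1 did with summed counts and 1 without any one 0824 library.

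Immediate early genes and several matrix enzymes also fell. For comparison, 3.52% of all genes tested fell and 5.7% rose. At 2.6% of them all 4 Tet1CD libraries lay below all 4 Flag libraries. Of 22 AP-1 and immediate early genes 6 fell and none rose, with a median of -0.21. Egr1 stood at 149, 241, 108 and 213 CPM against 97.1, 112, 87.4 and 91.6 (log2 fold change -0.80 ± 0.13 (SE), adjusted p = 0.00105), and Fosb, Egr3, Ier2, Junb and Phlda1 changed by -1.0 ± 0.18, -0.89 ± 0.19, -0.45 ± 0.11, -0.40 ± 0.11 and -0.38 ± 0.09. None of the 6 was free of overlap, none passed with summed counts or without the pairing, and 2 or 3 members passed when an 0826 library was left out. Of 24 collagen-modifying enzymes 3 fell, Loxl4 (-0.59 ± 0.10), P3h2 (-0.70 ± 0.15) and Plod1 (-0.43 ± 0.13), and all 3 had no overlap; 1 of them passed with summed counts and none without the pairing. Of 38 hypoxia and HIF target genes 4 fell, Egln3, Pfkfb3, Gpi1 and Vegfa, by -0.49 ± 0.08, -0.59 ± 0.13, -0.29 ± 0.07 and -0.52 ± 0.14 on the log2 scale, and none rose. That count was 1 without either library of the DMSO 0826 pair, 1 with summed counts and 0 without the pairing. Of 29 p53 targets and senescence genes 3 fell, the nuclease Aen (-0.39 ± 0.07), Cdkn1a (-0.32 ± 0.09), the cell cycle inhibitor p21, and Igfbp3 (-0.35 ± 0.10), and Cdkn2b rose (0.43 ± 0.12); none of the 4 passed with summed counts.

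Fibroblast genes did not move as a group, while 5.7% of all genes tested rose and 3.52% fell. Of 43 tested members 3 rose and 3 fell, and the median was 0.05. Dcn (0.50 ± 0.08), S100a4 (0.48 ± 0.10) and Lum (0.71 ± 0.16) rose, and Col6a2 (-0.39 ± 0.09), Tnc (-0.33 ± 0.08) and Mmp2 (-0.28 ± 0.08) fell; the last 3 did not pass when any one 0826 library was left out or with summed counts, and 1 of the 3 that rose passed with summed counts. The major collagens Col1a1 (-0.24 ± 0.12) and Col3a1 (0.07 ± 0.08) did not pass. The summed level was 18218 to 34241 CPM in Flag and 18773 to 29379 CPM in Tet1CD, with the 0826 libraries the higher ones in each virus, against 113430 and 123870 CPM in MEF. Of 30 imprinted genes 2 rose, Nnat (0.66 ± 0.16) and Impact (0.40 ± 0.10), and 2 fell, Cdkn1c (-0.62 ± 0.12) and Grb10 (-0.23 ± 0.06). None of these 4 imprinted genes passed with summed counts. Of 30 Hox genes none passed, and the lowest adjusted p was 0.144 for Hoxd8.

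Markers of other cell types gave few calls, beside 5.7% of all genes tested that rose and 3.52% that fell. Among 12 endothelial genes 1 rose, Mmrn2, from 0.572, 0.25, 0.763 and 0 CPM to 2.05, 3.01, 5.04 and 4.37 (adjusted p = 0.000822), while Pecam1 and Kdr stayed at most 2.26 and 1.51 CPM. Among 8 markers of extraembryonic endoderm Cubn rose (6.57, 16.7, 8.59 and 22.1 CPM against 14.7, 38.4, 17.2 and 42.8; log2 fold change 1.08 ± 0.14 (SE), adjusted p = 8.83e-05), and Gata6 was at 5.29, 6, 2.67 and 5.34 CPM against 3.29, 4.77, 3.55 and 7.51. Eomes, a transcription factor of trophoblast and primitive streak, was the 1 gene that rose among 8 trophoblast and among 3 mesoderm markers (0.714, 0, 0.382 and 0 CPM against 2.47, 0.753, 5.04 and 1.05; adjusted p = 0.0114). Bmp4 and Ets2 were the 2 trophoblast markers that fell. Of 6 muscle markers Tnni1 fell (-0.98 ± 0.21), of 12 neural markers Nes rose (0.41 ± 0.08), and of 11 adipocyte and cartilage markers Alpl fell (-0.61 ± 0.12). Of these marker genes, Mmrn2 and Cubn also rose with DMSO and DKG summed and the others did not pass.

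No gene showed an effect of Tet1CD that differed between the media: 0 of 14015 genes (0%) passed the edgeR test of the difference between DKG and DMSO, and 386 had an unadjusted p under 0.05. DESeq2 likewise called 0. For Gdf3 the log2 ratio was 3.98 and 3.76 in the DMSO pairs and 3.63 and 3.22 in the DKG pairs. For Isg15 the DMSO pairs gave 3.12 and 2.15 and the DKG pairs 2.90 and 3.26, after a prior count of 2 was added. With 2 pairs a medium, this does not show that the 2 media act alike: the difference for Isg15 was 0.36 ± 0.58 (SE).

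On day 8 the effect of Tet1CD differed between Vc and the other media at 81 genes (0.578%), being higher with Vc at 46 (0.328%) and lower at 35 (0.25%). With DMSO and DKG summed 7 genes passed, and without the pairing 4. Tet1 was not among them (difference -2.44 ± 0.63 (SE), adjusted p = 0.109): its log2 effect was 3.51 in Vc against 5.95 without, with 32 and 5.75 CPM in Flag with Vc and 179 and 246 CPM in Tet1CD with Vc. The cell cycle median was 0.54 in Vc and 0.53 without, the interferon median 2.00 and 1.56, and the pluripotency median 0.47 and 1.21; 1 pluripotency gene, Gdf3, and no gene of the other 2 lists passed the test of this difference. The effect on Gdf3 was 1.54 in Vc (difference -2.41 ± 0.43 (SE), adjusted p = 0.0185). Dpp4, a cell surface peptidase, rose without vitamin C by 1.00 ± 0.09, and its effect was lower in Vc by -1.41 ± 0.16 (SE), adjusted p = 0.000652. Of the 46 genes with a higher effect in Vc, 22 had risen without it. The Tet1CD Vc library of number 0824 held 1600 CPM of the 18 macrophage and blood markers against 104 CPM in number 0826, and without that library 24 genes passed, 18 higher and 6 lower. Lcp1, an actin-bundling protein of blood cells, was among the genes lost; Rab3gap1, with a difference of 2.07 ± 0.19 (SE), adjusted p = 7.39e-05, was not. The part of macrophages in this difference was not tested beyond that.

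The remaining pathways on the lists showed few changes, in both directions, beside 5.7% of all genes tested that rose and 3.52% that fell. Of 32 integrated and ER stress genes 2 rose (Slc7a3, Sdf2l1) and 2 fell (Herpud1, Atf4). Of 32 Nrf2 targets and redox enzymes, Gsr (0.40 ± 0.06) and Prdx1 rose and Keap1 fell. Among 24 cholesterol synthesis genes, Fdft1, which encodes squalene synthase, was the 1 that rose (0.27 ± 0.07). Of 26 Wnt genes Sfrp1 and Dkk2, both antagonists of the pathway, rose, and neither did when any one 0824 library was left out. None of the stress, redox, cholesterol and Wnt genes named here passed with summed counts. Over all lists, 35 counts were of 1 to 5 genes in a direction, and 24 of these moved by over 1.5 times when some single library was left out; 13 still held a gene with DMSO and DKG summed and 7 without the pairing.

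Promoter base composition differed a little between the sets. The median ratio of observed to expected CpG in the 300-base windows was 0.759 over all genes, 0.720 over the genes that rose and 0.766 over those that fell, and the median GC content 61%, 57.7% and 63.3%. The interferon genes that rose had a ratio of 0.377 and the cell cycle genes that rose one of 0.947, one on each side of the overall value. These are properties of the reference sequence, and methylation was not measured in these libraries.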

How the data were processed

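RNA was extracted with Trizol and 1 ug of total RNA per library was prepared with a TruSeq RNA kit, per the labels' protocols; that kit does not mark strand, so a gene and its antisense partner cannot be told apart. Bowtie, RSEM and the mouse build mm10 are named in the submitters' processing notes without versions or an annotation release. The deposited tables hold, per the file headers, RSEM expected counts and TPM per gene, 1 table for each of 31 libraries. Expected counts were rounded to whole numbers. Identifiers were matched to GENCODE mouse release 21 (28756 of 29267; the others held at most 0.392% of a library).

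Low-count genes were removed with edgeR's filterByExpr, libraries were scaled by TMM, and edgeR 4.0.16 (R 4.3.3) fitted quasi-likelihood models to the 24 day 3 and day 8 libraries with 1 block for each of 12 pairs of a Tet1CD and a Flag library and, on each day, 1 Tet1CD effect for DMSO and DKG together and 1 for Vc, leaving 8 residual degrees of freedom. Vc and the days were compared in the same model, and DKG and DMSO in a model with an effect for each medium. These comparisons share libraries. The SE given with a log2 change is its absolute value divided by the square root of the quasi-likelihood F statistic. It was not estimated separately. Libraries with the same title number deviated together: the correlation of deviations from group means was 0.434 to 0.712 over 15 pairs of day 8 groups, so that the numbers were used in the pairing. Between the viruses this correlation was 0.600 in DMSO and 0.660 in DKG. Between DMSO and DKG it was 0.707 in Flag and 0.683 in Tet1CD. The correlation therefore does not show that the DMSO and DKG pairs of one number are separate repeats. On simulated data for the day 8 comparison without vitamin C (14015 genes), 73% of 100 genes changed by 1 and 92% of 100 genes changed by 2 on the log2 scale were recovered, with 13 false calls. The simulated libraries were drawn independently with the spread of the paired model. They therefore cannot show false calls that would come from dependence between DMSO and DKG libraries of one title number. Alternatives were the model without the block or with a block within each day, fewer libraries, RLE size factors (as in DESeq2), no filter, a mean of at least 5 CPM, DESeq2 1.42.0, limma 3.58.1 on log2(TPM + 1) and log2(TPM + 0.1) of the deposited TPM, and leaving out each library. Sums per title number and the fits without 1 Tet1CD Vc or 1 ESC library were added after seeing the data.

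The comparison and the gene lists were chosen with earlier results of these data known. Genes were named by rule: Tet and reprogramming factor genes, the 15 largest changes in each direction with the same sign in 4 pairs and at least 5 CPM in one virus, up to 6 called members of each list by p, and 5 genes per direction of each difference. Other list members named were picked after their values were seen. Some genes of these lists enter the counts and are not reported here by name.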

Additional observations from a re-analysis of the deposited data

Results flagged for a closer look

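The Tet3 level of the Flag DKG 0824 library, 98.1 CPM, stood apart from the other 3 Flag libraries by more than Dixon's 95% critical value for 4 samples. It was the 1 such value among 72 groups of 4 libraries examined over 36 genes, of which chance flags about 1 in 20. It lies toward the Tet1CD values. The Tet1CD library of the same pair was also the lowest of its group, and the difference in Tet3 was estimated within pairs.

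The effect of Tet1CD on day 8 differed between Vc and the other media at 81 genes (7 with DMSO and DKG summed) by the interaction test in edgeR, with log2 differences given here with their SE. It was higher in Vc for Rab3gap1, by 2.07 ± 0.19 (adjusted p = 7.39e-05), Cep112it, by 1.72 ± 0.21 (adjusted p = 0.00112), Spp1, which encodes osteopontin, by 1.63 ± 0.20 (adjusted p = 0.00112), Lcp1, by 4.70 ± 0.62 (adjusted p = 0.00229), and Slco1a6, by 4.29 ± 0.58 (adjusted p = 0.00229). It was lower in Vc for Dpp4, by -1.41 ± 0.16 (adjusted p = 0.000652), Jam2, by -0.89 ± 0.12 (adjusted p = 0.00229), Col17a1, by -1.62 ± 0.24 (adjusted p = 0.00351), Fbxo40, by -1.79 ± 0.29 (adjusted p = 0.00841), and the noncoding RNA Platr15, by -2.02 ± 0.34 (adjusted p = 0.00945). Lcp1 stood at 238 CPM in the Tet1CD Vc library 0824 and at 4.38 CPM in 0826; without the former library its difference was 0.87 (adjusted p = 0.743) and did not pass, and neither Col17a1 nor Platr15 passed, while the other 7 genes did.

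The effect without vitamin C differed between day 8 and day 3 at 304 genes by the same kind of test (0 genes with DMSO and DKG summed). It was higher on day 8 for Top2a, by 0.94 ± 0.11 (adjusted p = 0.000422), Mki67, by 0.84 ± 0.10 (adjusted p = 0.000422), Bub1b, by 0.89 ± 0.10 (adjusted p = 0.000422), Brca1, by 1.03 ± 0.11 (adjusted p = 0.000422), and Hmgb2, by 0.85 ± 0.10 (adjusted p = 0.000422). It was lower on day 8 for Npas2, by -1.39 ± 0.17 (adjusted p = 0.000893), Fmod, by -1.32 ± 0.17 (adjusted p = 0.00104), cyclin D2 (Ccnd2), by -0.53 ± 0.08 (adjusted p = 0.00271), smooth muscle actin (Acta2), by -0.81 ± 0.12 (adjusted p = 0.00278), and the lysyl oxidase Loxl2, by -0.63 ± 0.10 (adjusted p = 0.00287). Acta2 and Loxl2 did not pass in the day 8 comparison itself, at -0.15 ± 0.09 and -0.10 ± 0.07.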

How the results depend on the processing

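The counts of genes called depended on how the libraries were paired. For Tet1CD against Flag without vitamin C on day 8 (1292 genes), the model without the replicate block called 215 and summed DMSO and DKG counts 282. The genes of these 2 settings were all among the 1292. The 12 day 8 libraries alone gave 814, DESeq2 797, limma on log2(TPM + 1) 782 and on log2(TPM + 0.1) 687, not all of them among the 1292. Leaving out 1 library gave 701 to 863. The common dispersion was 0.00884 with the block and 0.0522 without it. For the difference between DKG and DMSO (0 genes), the 8 libraries alone, the 12 day 8 libraries and limma at either pseudocount each called 1 gene, and 30 genes were called without the filter; leaving out 1 library gave 0 to 0. For the difference made by Vc (81 genes), the values were 4 without the block, 44 with the 12 day 8 libraries, 455 without the filter, 29 and 9 with limma at pseudocounts of 1 and 0.1, 7 with summed counts, 24 without the Tet1CD Vc library 0824, and 27 (DMSO 0824 pair) to 67 leaving out 1 library of the DMSO or DKG groups. For the day difference (304 genes), they were 22 without the block, 644 without the filter, 149 and 140 with limma, 0 with summed counts, and 187 to 234 leaving out 1 library. The ESC-high share of genes that rose was 47.9% at 2-fold and 31.4% without ESC 0822, and the MEF-high share of genes that fell 37.9% and 28.8%. The cause of these shifts was not tested, except that fewer libraries or summed counts leave fewer degrees of freedom. Of 151 values for named genes, 146 passed in the model as reported; 110 no longer did without the block and 93 with summed counts, each in the same direction, and no value reversed under any alternative run. Genes with few reads limit what can be seen, since 3 counts correspond to 0.440 to 0.759 CPM.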

Other observations

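Several genes that rose lay outside every list. Gpr179, an orphan receptor known from retinal bipolar cells (chr11:97332109-97352077, mm10), stood at 4.57, 3.50, 2.67 and 3.30 CPM in the Flag libraries and 44.0, 25.1, 74.9 and 46.0 in the Tet1CD libraries (log2 fold change 3.72 ± 0.22 (SE), adjusted p = 8.26e-08), in the order DMSO 0824, DMSO 0826, DKG 0824 and DKG 0826. All 4 Tet1CD libraries were above all Flag libraries, and among the Tet1CD libraries number 0824 was the higher one in each medium. The transcript 4930550L24Rik went from 2.00, 1.75, 4.77 and 1.27 CPM to 26.6, 20.3, 32.0 and 22.2 (log2 fold change 3.39 ± 0.30 (SE), adjusted p = 3.21e-06). Platr15, a noncoding RNA named for its association with pluripotency, rose from 2.71, 1.75, 2.67 and 1.78 CPM to 12.1, 4.27, 13.2 and 5.42 (log2 fold change 1.98 ± 0.23 (SE), adjusted p = 3.78e-05), and Spp1 from 27.0, 30.5, 32.4 and 37.6 CPM to 65.6, 63.5, 66.3 and 78.5 (log2 fold change 1.12 ± 0.12 (SE), adjusted p = 1.29e-05). None of these 4 genes overlapped between the groups. Platr15 shares 19.2% and Spp1 11.6% of its 50-base windows with other genes.

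Rab3gap1, which regulates vesicle traffic through RAB3, stood at 124, 128, 124 and 144 CPM in Flag and 165, 172, 263 and 234 in Tet1CD without vitamin C, and with Vc at 170.2 and 136 CPM in Flag and 1032 and 983 CPM in Tet1CD (numbers 0824 and 0826). On day 3 without vitamin C its log2 effect was 0.08.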
